A study of Homo sapiens with 6 samples.

Results

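The urea cycle was followed in cells labelled as hepatoblasts through 10 genes, picked by name: GLUD1, NAGS, CPS1, OTC, SLC25A15, SLC25A13, ASS1, ASL, ARG1 and ARG2. Each was found once among the 60623 genes of the files, and all 10 were among the 15664 genes with a level of 1 TPM or above (transcript abundance scaled to a fixed total) in 3 or more libraries. H9 human embryonic stem cells were the source of the cells, which the labels call hepatoblasts at day 19. In 3 libraries the cells had received HFPO-TA (hexafluoropropylene oxide trimer acid, a perfluorinated ether carboxylic acid). The other 3 came from cells given 0.1% DMSO as vehicle. The labels give the HFPO-TA dose as 10 in an unclear unit, and a DMSO share is recorded for the control cells alone. All libraries come from 1 cell line, and the labels do not say whether replicates are cultures of their own, so the spread behind the p-values may be technical.

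The urea cycle turns ammonia, which is toxic to the brain, into urea for excretion, and the periportal hepatocyte is its main site. Its opening steps lie in the mitochondrial matrix, where ammonia and bicarbonate become carbamoyl phosphate and then citrulline. Its later steps lie in the cytosol, where aspartate brings the other nitrogen and arginine is split into urea and ornithine. Carriers of the inner mitochondrial membrane bring ornithine in, take citrulline out and supply aspartate. Parts of the pathway also work outside the liver, and the small intestine uses its mitochondrial steps to make citrulline.

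The promoters of 3 genes are shown here, picked by the values of the genes: the liver arginase ARG1 and its paralog ARG2, which had very different levels, and SLC25A13, which had the smallest p of the 10 genes between the groups. A link between the promoter letters and these values was not tested. The bases are from GRCh38.p14 and run 5′ to 3′ on the gene's own strand. They begin 250 bases before the RefSeq start and end just before the GENCODE gene start, which comes earlier on that strand. The bases between the GENCODE and RefSeq starts are not printed, and the match counts of the printed stretches leave them out. ARG1 is at chr6:131572976-131573143 on the plus strand, ARG2 at chr14:67619670-67619797 on the plus strand and SLC25A13 at chr7:96322148-96322348 on the minus strand. Capitals mark matches on either strand to the 5 motifs searched: AGGTCA (a nuclear receptor core), TGACG (a core of the cAMP response element), the CCAAT box, the GC box GGGCGG and the TATA box TATAAA.
ARG1: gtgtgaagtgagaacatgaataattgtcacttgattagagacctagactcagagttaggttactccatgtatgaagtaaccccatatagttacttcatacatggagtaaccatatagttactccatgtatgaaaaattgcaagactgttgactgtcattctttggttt
ARG2: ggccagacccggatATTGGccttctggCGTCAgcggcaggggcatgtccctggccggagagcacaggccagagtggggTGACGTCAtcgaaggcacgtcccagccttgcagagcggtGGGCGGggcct
SLC25A13: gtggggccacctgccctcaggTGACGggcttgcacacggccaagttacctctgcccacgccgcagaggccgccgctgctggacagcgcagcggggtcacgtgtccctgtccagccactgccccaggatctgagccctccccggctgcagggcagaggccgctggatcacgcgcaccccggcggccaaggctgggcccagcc
The ARG2 stretch held 5 matches, of which a TGACG and a reverse TGACG overlap by 2 bases, the SLC25A13 stretch 1, and the ARG1 stretch 0. RefSeq windows from 250 bases before to 50 after a start numbered 13 for the 10 genes. GGGCGG was in 8 of these windows, TGACG and CCAAT in 4 each, TATAAA in 2 and AGGTCA in 0. Over 35116 human promoter windows of the same length the shares were 45.0%, 24.6%, 34.6%, 11.5% and 13.8%. The windows of ARG1, SLC25A13 and ARG2 reach past the printed stretches. That of ARG1 held 1 TATAAA, and that of SLC25A13 held 1 TGACG, 1 CCAAT and 2 GGGCGG. That of ARG2 held 5 TGACG, 2 CCAAT and 5 GGGCGG. A match is a description of the letters and not a binding site.

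None of the 10 genes passed the test between HFPO-TA and DMSO, in a limma fit over all 15664 genes, where passing means an adjusted p (Benjamini-Hochberg) under 0.05. At the same threshold 0.492% of all tested genes changed. At an unadjusted p under 0.05 there were 3 of the 10 genes, SLC25A13 and ASS1 on the higher side and CPS1 on the lower side, against 12.0% of all tested genes (5.45% higher and 6.56% lower). In the same 3 genes the libraries of the groups did not overlap, against 17.9% of all tested genes (8.55% higher and 9.40% lower). With 10 genes these counts describe the set and carry no test. The median log2 fold change, HFPO-TA minus DMSO, was 0.02 over the 10 genes and -0.01 over all tested genes, with 6 genes above 0 and 4 below.

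**Figure D1:**
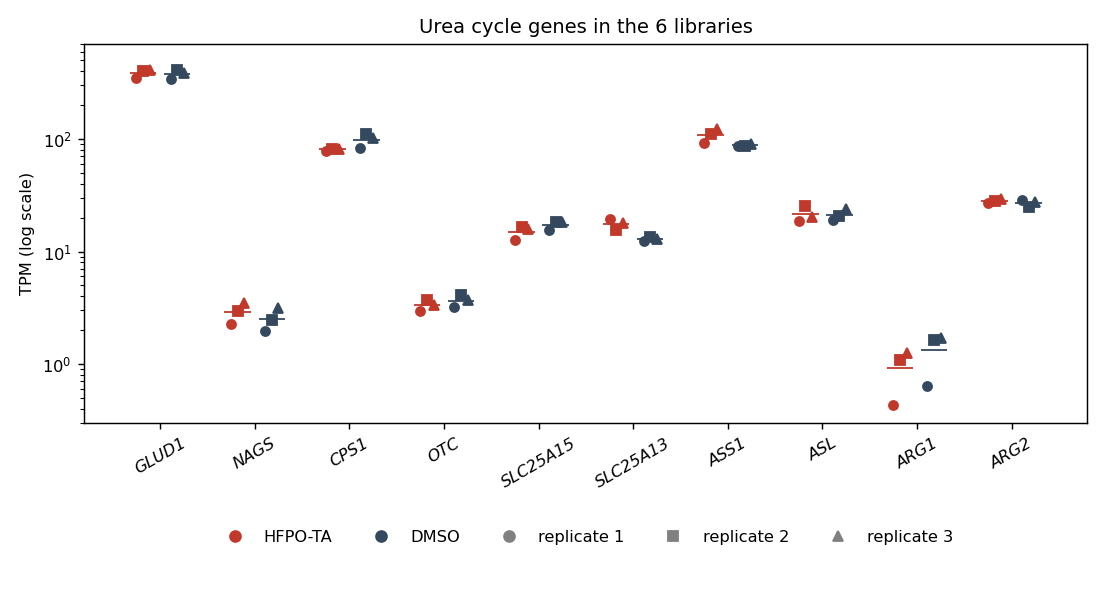
TPM of the 10 urea cycle genes in each library, on a log scale; HFPO-TA in red at the left of each gene, DMSO in blue at the right, symbols give the replicate and lines the group mean (n = 3 each). GLUD1 lies near 400 TPM and ARG1 near 1 TPM, and the groups separate for CPS1, SLC25A13 and ASS1.

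The levels of the genes spanned more than their groups differed. TPM is corrected for transcript length, so levels of different genes can be set side by side. In HFPO-TA cells the order from high to low was GLUD1, ASS1, CPS1, ARG2, ASL, SLC25A13, SLC25A15, OTC, NAGS and ARG1. In DMSO cells CPS1 stood before ASS1 and SLC25A15 before SLC25A13, and the order was otherwise the same. Neighbours whose libraries overlapped were ASL with SLC25A13, SLC25A13 with SLC25A15 and OTC with NAGS in HFPO-TA cells, and CPS1 with ASS1 in DMSO cells. GLUD1 made up 58.1% ± 0.40 of the summed TPM of the 10 genes with HFPO-TA and 58.2% ± 0.89 with DMSO (SD, n = 3 each).

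GLUD1 encodes mitochondrial glutamate dehydrogenase, which frees ammonia from glutamate. It stood at 345.44, 400.24 and 414.05 TPM in HFPO-TA replicates 1 to 3, against 344.95, 408.50 and 384.55 TPM in DMSO replicates 1 to 3. The groups overlapped, and 98.2% of tested genes had a lower mean. Its log2 fold change was 0.03 (SE 0.09, 95% interval -0.18 to 0.23, adjusted p = 0.94 with limma). GLUD2, an intronless copy of GLUD1 whose transcript matches it at 95.9% over 2512 bases, stood at 0.73, 0.74 and 0.74 TPM with HFPO-TA against 0.91, 1.47 and 1.23 TPM with DMSO. Reads of such a pair can be split between the copies, so the low GLUD2 values are uncertain. GLUD1 also shares 464 exon bases with SHLD2 on the opposite strand, and whether strand was kept is not given in the sources used here.

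NAGS makes N-acetylglutamate, without which CPS1 is inactive. It had 2.29, 2.98 and 3.50 TPM in HFPO-TA replicates 1 to 3, against 1.98, 2.48 and 3.12 TPM in DMSO replicates 1 to 3. The groups overlapped and the gene lay low, with 19.6% of tested genes below it. The log2 fold change was 0.15 (SE 0.19, 95% interval -0.28 to 0.59, adjusted p = 0.814 with limma).

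CPS1, which makes carbamoyl phosphate and sets the pace of the cycle, was lower in every HFPO-TA library than in every DMSO library. It stood at 78.50, 81.86 and 81.93 TPM in HFPO-TA replicates 1 to 3, against 82.57, 109.89 and 102.76 TPM in DMSO replicates 1 to 3. The gap between the closest libraries was under 1 TPM, since DMSO replicate 1 lay far below the other DMSO libraries. The means were 80.8 ± 1.96 and 98.4 ± 14.2 TPM (SD, n = 3 each). The log2 fold change was -0.27 (SE 0.10, 95% interval -0.51 to -0.03), and the adjusted p of 0.35 did not pass with limma. Adjusted p ran from 0.089 (without DMSO replicate 1) to 0.716 in the fits without a library. CPS1 spans 210477682 to 210679107 on chromosome 2 in GENCODE 29 (GRCh38).

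OTC, which joins carbamoyl phosphate to ornithine to give citrulline, was far less abundant than CPS1 although both act in the same compartment. Its values were 2.95, 3.70 and 3.37 TPM in HFPO-TA replicates 1 to 3, against 3.18, 4.10 and 3.71 TPM in DMSO replicates 1 to 3. CPS1 TPM exceeded OTC TPM 22.1 to 26.6 times with HFPO-TA and 26.0 to 27.7 times with DMSO, ranges that overlap. The log2 fold change of OTC was -0.10 (SE 0.15, 95% interval -0.44 to 0.24, adjusted p = 0.851 with limma).

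The carriers between mitochondrion and cytosol lay on opposite sides of 0. SLC25A13 encodes citrin, which exports aspartate from the mitochondrion in exchange for glutamate, and mutations in it cause citrin deficiency. It stood at 19.46, 15.57 and 17.75 TPM in HFPO-TA replicates 1 to 3, against 12.32, 13.44 and 12.89 TPM in DMSO replicates 1 to 3. Every HFPO-TA library lay above every DMSO library, and the ratio of the means was 1.37. The log2 fold change was 0.42 (SE 0.11, 95% interval 0.17 to 0.67), and the adjusted p of 0.17 did not pass with limma. Leaving out a library gave adjusted p from 0.174 to 0.475. SLC25A13 spans 96120220 to 96322147 on chromosome 7 (GRCh38), on the strand whose promoter is printed above.

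SLC25A15 encodes the ornithine carrier, which brings ornithine in and takes citrulline out. It had 12.76, 16.47 and 15.77 TPM in HFPO-TA replicates 1 to 3, against 15.61, 18.13 and 18.16 TPM in DMSO replicates 1 to 3. DMSO replicate 1 lay within the HFPO-TA range, so the groups overlapped. The log2 fold change was -0.20 (SE 0.12, 95% interval -0.48 to 0.08, adjusted p = 0.589 with limma). Its near relative SLC25A2, another ornithine carrier, was at 0.07 TPM in HFPO-TA replicate 2, 0.13 TPM in DMSO replicate 2 and 0 in the other 4 libraries.

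ASS1 joins citrulline and aspartate into argininosuccinate, the step at which the other nitrogen enters. Its libraries were at 92.72, 111.18 and 122.59 TPM in HFPO-TA replicates 1 to 3, against 87.06, 86.03 and 90.23 TPM in DMSO replicates 1 to 3. All HFPO-TA libraries lay above all DMSO libraries, and the HFPO-TA libraries were spread more widely (109 ± 15.1 against 87.8 ± 2.19 TPM, SD, n = 3 each). The log2 fold change was 0.30 (SE 0.10, 95% interval 0.07 to 0.53, adjusted p = 0.28 with limma). Without HFPO-TA replicate 1 it was 0.41 and the gene passed (adjusted p = 0.0397), and it passed in none of the other 5 fits without a library. The ASS1 transcript has 13 copies elsewhere in the annotation with over 85% identity across more than 1000 bases (88.2% to 93.9%). None of these copies was listed above 0.17 TPM in any library.

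ASL splits argininosuccinate into arginine and fumarate. It was at 18.50, 25.45 and 20.36 TPM in HFPO-TA replicates 1 to 3, against 19.01, 20.64 and 23.65 TPM in DMSO replicates 1 to 3. The groups overlapped throughout, with a log2 fold change of 0.02 (SE 0.14, 95% interval -0.30 to 0.33, adjusted p = 0.981 with limma). ASS1 TPM exceeded ASL TPM 4.37 to 6.02 times with HFPO-TA and 3.82 to 4.58 times with DMSO. These ranges overlap.

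The arginases, which release urea from arginine, were represented almost wholly by ARG2. ARG1, the cytosolic arginase of mature liver, had 0.43, 1.09 and 1.24 TPM in HFPO-TA replicates 1 to 3, against 0.64, 1.64 and 1.72 TPM in DMSO replicates 1 to 3. It passed the 1 TPM filter in 4 of the 6 libraries, and only 3.22% of tested genes lay below it. ARG2, the mitochondrial arginase found mainly outside the liver, had 27.15, 27.98 and 29.21 TPM in HFPO-TA replicates 1 to 3, against 28.69, 24.99 and 27.43 TPM in DMSO replicates 1 to 3. The groups overlapped for both genes. ARG2 accounted for 95.9% to 98.4% of arginase TPM with HFPO-TA and 93.8% to 97.8% with DMSO.

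The fold change of ARG1 was poorly determined at its level, -0.27 on the log2(TPM + 1) scale (SE 0.27, 95% interval -0.90 to 0.36, adjusted p = 0.764 with limma) and -0.49 with a pseudocount of 0.1. That of ARG2 was 0.06 (SE 0.08, 95% interval -0.14 to 0.25, adjusted p = 0.859 with limma). ARG2 shares 904 exon bases with VTI1B on the opposite strand, which stood at 72.7 TPM with HFPO-TA and 73.6 TPM with DMSO. Without knowledge of strand some ARG2 reads could belong to VTI1B. ARG1 lies within the span of MED23 on the opposite strand (15.9 and 15.4 TPM with HFPO-TA and DMSO) but shares no exon bases with it.

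**Figure D2:**
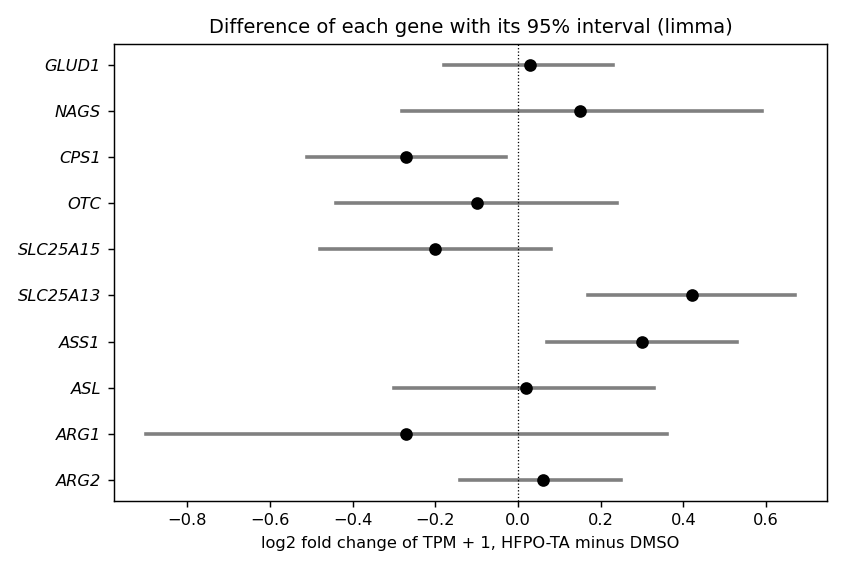
Log2 fold change of TPM + 1, HFPO-TA minus DMSO, for the 10 genes in the order of the pathway; points are limma estimates and bars their 95% intervals, not adjusted for the number of genes. The interval lies above 0 for SLC25A13 and ASS1, below 0 for CPS1 and across 0 for the other 7.

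Replicate 1 stood apart from the other replicates in most of the 10 genes. A letter in the file names, which the labels do not explain, parts replicate 1 from replicates 2 and 3 in both groups. In 6 genes (NAGS, OTC, ASL, ARG1, SLC25A15 and GLUD1) both replicate 1 libraries lay below the other 4 libraries, against 4.83% of all tested genes. ARG1 averaged 0.535 TPM in the replicate 1 libraries and 1.42 TPM in the other 4. In a limma fit with treatment and a term for replicate 1, the difference of replicate 1 from the others was below 0 in 8 of the 10 genes, against 32.8% of all tested genes. Its median was -0.22 over the 10 genes and 0.08 over all tested genes. At an unadjusted p under 0.05 it was lower in 4 (CPS1, SLC25A15, ARG1 and GLUD1) and higher in none, against 3.65% of all tested genes lower and 17.7% in either direction. None passed after adjustment (smallest adjusted p = 0.107, for GLUD1), and 0.351% of all tested genes did. This pattern was seen in the data before it was counted.

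The same libraries differed in markers of stromal and stellate cells, a list of 10 genes that includes the collagens COL1A1 and COL3A1. Their summed level was 2292 TPM in HFPO-TA replicate 1 and 1121 to 1131 TPM in the other HFPO-TA libraries, and 2012 TPM in DMSO replicate 1 and 1379 to 1571 TPM in the other DMSO libraries. All 10 of these markers passed the filter, and 0 were at 0. The summed proximal tubule markers were also highest in replicate 1, at 459 TPM with HFPO-TA (279.5 and 290.2 TPM in its other libraries) and 479.8 TPM with DMSO (342 and 374 TPM). The same held for biliary markers, at 1743 TPM with HFPO-TA (1475 and 1445 TPM) and 1707 TPM with DMSO (1580 and 1592 TPM). AQP1 is on both the proximal tubule and the biliary list, so these sums are not independent. Endothelial markers too were highest in replicate 1, at 61 TPM with HFPO-TA (43 and 44 TPM) and 57.8 TPM with DMSO (48.5 and 49.2 TPM). The summed hepatocyte markers were lowest there, at 108574 TPM with HFPO-TA (116791 and 118336 TPM) and 119825 TPM with DMSO (134257 and 134512 TPM). So were the summed enterocyte markers, at 29454 TPM with HFPO-TA (37066 and 38564 TPM) and 22420 TPM with DMSO (26029 and 26138 TPM). Nearly all of that enterocyte sum was APOA4, at 28467.42 TPM in HFPO-TA replicate 1 and 21727.75 TPM in DMSO replicate 1. Other enterocyte markers did not all go the same way. CDX2 averaged 67.4 TPM in replicate 1 and 56.4 TPM in replicates 2 and 3, and VIL1 averaged 196 and 209 TPM. The summed mature hepatocyte and pluripotency markers were also lowest in replicate 1 of each group. The part of these markers in the replicate 1 values of the urea cycle genes was not tested. In such bulk samples fewer cells of a type and less RNA per cell cannot be told apart.

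**Figure D3:**
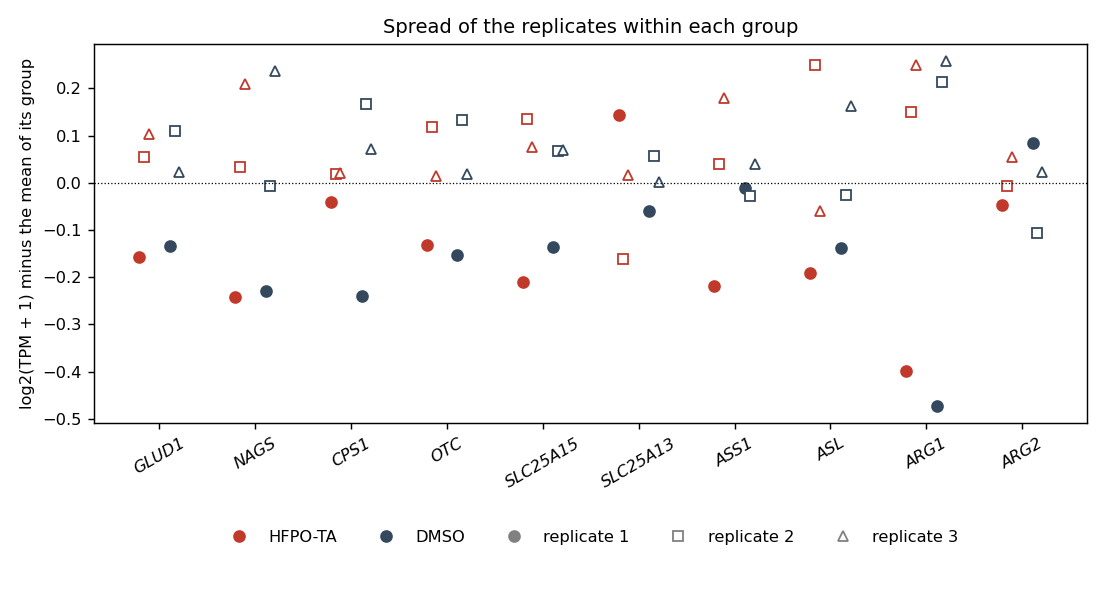
Log2(TPM + 1) of each library minus the mean of its group, for the 10 genes; HFPO-TA in red at the left and DMSO in blue at the right, filled circles for replicate 1 and open symbols for replicates 2 and 3. Replicate 1 lies below 0 in both groups for GLUD1, NAGS, CPS1, OTC, SLC25A15, ASS1, ASL and ARG1.

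Within the letters the 3 genes whose groups separated did not behave alike. The replicate 1 libraries, 1 in each group, differed by 0.62 for SLC25A13, 0.09 for ASS1 and -0.07 for CPS1 on the log2 scale (HFPO-TA minus DMSO, no test). Replicates 2 and 3 alone gave 0.32 for SLC25A13 (adjusted p = 0.226), 0.40 for ASS1 (adjusted p = 0.066) and -0.37 for CPS1 (adjusted p = 0.0617) with limma. The ASS1 and CPS1 differences were thus larger within replicates 2 and 3 and the SLC25A13 difference was larger between the replicate 1 libraries, and a test of that difference was not made.

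Cell identity markers place these values. AFP, a serum protein of the fetal liver, was at 63150.38 to 66804.17 TPM with HFPO-TA and 71682.03 to 79063.05 TPM with DMSO, while albumin (ALB) was at 54.07 to 73.51 and 100.92 to 128.68 TPM. All 12 hepatocyte markers passed the filter, with a summed level of 108574 to 118336 TPM with HFPO-TA and 119825 to 134512 TPM with DMSO, ranges that do not overlap. AFP made up most of this sum, and its own difference did not pass (adjusted p = 0.0867 with limma). Of these markers FGB, a fibrinogen chain, fell (3453 against 6737 TPM, log2 fold change -0.97, adjusted p = 0.0104 with limma), and no other hepatocyte marker passed. ALB lay just short of the threshold (log2 fold change -0.80, adjusted p = 0.0522 with limma). With a term for replicate 1, ALB and AFP passed (adjusted p = 0.0135 and 0.0109). They also passed in replicates 2 and 3 alone (0.0423 and 0.0162), but not with the replicate block (0.0535 for each). The part of the lower hepatocyte marker sum in the CPS1 values was not tested. Of the 8 markers of mature hepatocytes 2 passed the filter. Of 12 enterocyte markers 11 passed, with a summed level of 29454 to 38564 TPM with HFPO-TA and 22420 to 26138 TPM with DMSO. Most of that sum was APOA4, which liver also makes, but the intestinal regulator CDX2 stood at 53.67 to 61.89 and 54.24 to 72.89 TPM and lactase (LCT) at 296.01 to 315.61 and 148.67 to 170.55 TPM. LCT passed the test (log2 fold change 0.94, adjusted p = 0.00239 with limma), and no other enterocyte marker did. FABP1, of the same list, had a larger difference that did not pass (482 against 132 TPM, log2 fold change 1.80, adjusted p = 0.0726 with limma). With a term for replicate 1 FABP1 passed (adjusted p = 0.0163), but not with the replicate block (0.0613). CDX2 and VIL1 lay slightly on the lower side (log2 fold change -0.06 and -0.09), with groups that overlapped. Enterocytes also use CPS1, OTC and ARG2, and the part of gut-like expression in the values of these genes was not tested. Of 7 erythroid markers 0 passed the filter, and HBA1, HBA2, HBB and HBG1 were at 0 throughout. Of 8 macrophage and neutrophil markers 4 passed, with a summed level of 53 to 64.7 TPM with HFPO-TA and 53.8 to 59.5 TPM with DMSO, and MPO was at 0 throughout.

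Of 83 neighbouring genes of the pathway, in 6 lists, 72 were tested, 2 fell, 0 rose and 70 did not pass. Over all tested genes 0.306% fell and 0.185% rose. Their median log2 fold change was 0.02. Both that fell belong to the list of arginine and ornithine uptake and use, of which 23 genes were tested (median 0.02). GATM, which takes the amidino group of arginine for creatine, was at 127.58, 103.64 and 113.28 TPM in HFPO-TA replicates 1 to 3, against 185.54, 180.72 and 198.96 TPM in DMSO replicates 1 to 3. The groups did not overlap, and the log2 fold change was -0.71 (SE 0.08, adjusted p = 0.0233 with limma). GATM is also abundant in kidney tubule, and 5 of 6 proximal tubule markers passed the filter, with a summed level of 279.5 to 459 TPM with HFPO-TA and 342 to 479.8 TPM with DMSO. Their part in the GATM values was not tested.

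ODC1, which turns ornithine into putrescine for polyamines, was at 290.05, 325.52 and 330.11 TPM in HFPO-TA replicates 1 to 3, against 463.15, 662.65 and 553.17 TPM in DMSO replicates 1 to 3. These groups did not overlap either (log2 fold change -0.81, SE 0.12, adjusted p = 0.0499 with limma). GATM kept its call in 1 of the 6 fits without a library (without HFPO-TA replicate 1, adjusted p = 0.00659), with adjusted p up to 0.189 in the others. ODC1 kept it in 1 as well (without DMSO replicate 1, adjusted p = 0.0273), with adjusted p up to 0.247 in the others. OAT, which links ornithine to proline and glutamate, had 371 ± 38.4 TPM with HFPO-TA and 351 ± 10.6 TPM with DMSO (SD, n = 3 each, adjusted p = 0.776). SAT1, a polyamine acetyltransferase and the most abundant gene of the list, had 1657 ± 62.3 and 1685 ± 91.6 TPM (adjusted p = 0.917).

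The other lists held no gene that passed. In the list of nitrogen supply to the mitochondrial steps 14 of 16 genes were tested (median 0.00). LONP1, a protease of the mitochondrial matrix, had the smallest p, with 69.7 ± 4.23 TPM with HFPO-TA and 57.0 ± 4.06 TPM with DMSO (SD, n = 3 each, log2 fold change 0.29, adjusted p = 0.202). GLS2, the liver glutaminase, which frees ammonia from glutamine, stood at 5.73 ± 1.35 TPM with HFPO-TA and 4.38 ± 0.0643 TPM with DMSO (SD, n = 3 each, log2 fold change 0.30, adjusted p = 0.544). CA5A, the carbonic anhydrase that supplies bicarbonate to CPS1, was at 0.99, 2.84 and 1.88 TPM in HFPO-TA replicates 1 to 3, against 0.63, 2.26 and 2.55 TPM in DMSO replicates 1 to 3. Replicate 1 was thus its lowest library in each group. SIRT5, which removes acyl groups from CPS1, was at 6.10 and 5.52 TPM (adjusted p = 0.826). Its replicate 1 libraries were instead the highest of each group, at 7.23 TPM with HFPO-TA and 5.95 TPM with DMSO. Those of GLUL, the glutamine synthetase gene, were the highest as well, so neighbouring genes did not all go the same way.

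Glutamine synthesis, the other route of ammonia disposal, was far more abundant as transcript than the cycle itself. GLUL, glutamine synthetase, which in adult liver is restricted to cells around the central vein, stood at 2561.21, 2249.51 and 2287.94 TPM in HFPO-TA replicates 1 to 3, against 2130.17, 1891.88 and 1974.27 TPM in DMSO replicates 1 to 3. The groups did not overlap, and the log2 fold change of 0.24 (SE 0.07, adjusted p = 0.197 with limma) did not pass. With a term for replicate 1 it did (adjusted p = 0.0267), but not with the replicate block (0.0777) or in replicates 2 and 3 alone (0.0611). GLUL TPM exceeded CPS1 TPM 27.5 to 32.6 times with HFPO-TA and 17.2 to 25.8 times with DMSO, and the separate values of both genes already fix that these ranges lie apart. SLC38A3, a glutamine transporter of periportal hepatocytes, had the smallest p of its list, with 26.9 ± 2.14 TPM with HFPO-TA and 35.7 ± 2.26 TPM with DMSO (SD, n = 3 each, log2 fold change -0.40, adjusted p = 0.123). In that list 9 of 11 genes were tested (median 0.02).

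On the aspartate and fumarate side all 8 genes were tested (median 0.04). The cytosolic malate dehydrogenase MDH1 stood at 226 and 223 TPM with HFPO-TA and DMSO, and the mitochondrial MDH2 at 146 and 127 TPM (adjusted p = 0.905 and 0.298). Among urea and water channels 3 of 6 genes were tested (median -0.18), and AQP3, a channel for water and glycerol, led the list at 216 and 244 TPM (adjusted p = 0.285).

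Of 17 regulators known to act on urea cycle genes or on hepatic nitrogen metabolism, 15 were tested (median 0.03). GCGR, the receptor of glucagon, which raises urea cycle enzymes in liver, was at 15.03, 14.36 and 13.40 TPM in HFPO-TA replicates 1 to 3, against 22.77, 19.47 and 20.56 TPM in DMSO replicates 1 to 3. The groups did not overlap, and the log2 fold change was -0.52 (SE 0.10, adjusted p = 0.0746 with limma). The adjusted p was 0.0365 with a term for replicate 1, 0.104 with the replicate block and 0.0812 in replicates 2 and 3 alone. CEBPA, a hepatic transcription factor needed for CPS1 expression in mice, had 79.0 ± 9.83 TPM with HFPO-TA and 67.4 ± 1.30 TPM with DMSO (SD, n = 3 each, adjusted p = 0.40). CEBPA shares 659 exon bases with the antisense gene AC008738.3, at 45.6 TPM with HFPO-TA and 30.8 TPM with DMSO, and without strand their reads there cannot be told apart. HNF4A was below its DMSO range in each HFPO-TA library, at 37.04 to 39.32 against 46.98 to 53.54 TPM (log2 fold change -0.35, adjusted p = 0.119). The antisense gene HNF4A-AS1, at 17.0 TPM with HFPO-TA and 26.0 TPM with DMSO, shares no exon bases with it.

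**Figure D4:**
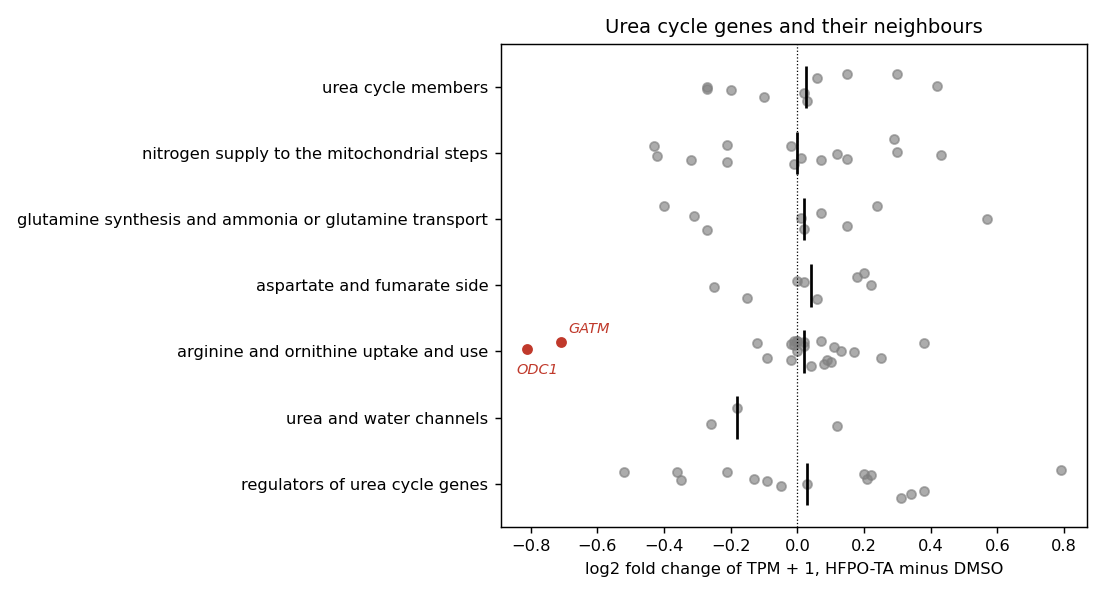
Log2 fold change of TPM + 1, HFPO-TA minus DMSO, for the 10 urea cycle genes and the tested genes of the 6 neighbouring lists; each point is a gene, placed at random within its row, and black bars are list medians. Red points passed the test (ODC1 and GATM, both lower), and all other points are grey.

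Genes with the most similar pattern over the 6 libraries were taken from 8096 other genes with a mean of at least 10 TPM, by the sum of squared differences of centred log2(TPM + 1) values. Nearest to CPS1 were MRPS25, KLHL5 and TMEM141, with sums of 0.0053, 0.0054 and 0.0063. Nearest to SLC25A13 were TMEM135, CEP57 and CALCOCO2, with sums of 0.0187, 0.0222 and 0.0233. TMEM135 stood at 32.51, 23.84 and 28.98 TPM in HFPO-TA replicates 1 to 3, against 20.81, 20.50 and 20.53 TPM in DMSO replicates 1 to 3. These are descriptions with no test.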

How the data were processed

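RNA sequencing values were taken from 6 files, 1 per library, with 3 HFPO-TA and 3 DMSO libraries. The columns are headed FPKM, but the deposited values sum to between 995690 and 996186 in each library and were read as TPM made by the authors. Per the submitters' processing notes, RSEM, HISAT and Bowtie2 were used with GRCh38.p13. Tool versions and roles, annotation and strand setting are not stated there. TPM holds no read depth, and intervals for counting error were not made. 15383 to 15905 genes reached 1 TPM in a library.

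Values were tested as log2(TPM + 1) with limma 3.58.1 in R 4.3.3 (treatment as the only term, trended and robust variance, 2-sided) over genes that reached 1 TPM in 3 or more libraries. Fold changes on this scale understate low genes. The adjusted p is Benjamini-Hochberg over all 15664 tested genes. The genes, lists and tests were chosen with earlier results of these data known. All 10 genes are named. Of the other lists, the genes that passed, the smallest p, the highest mean and 9 fixed genes are named, except for an item not reported here. The fit was tested on simulated data. Alternatives covered the pseudocount, filter, variance estimate, scaling, replicate terms and each library left out. Positions are from GENCODE 29. Transcript copies were found with blastn 2.17.0 and figures drawn with matplotlib 3.10.9 in Python 3.11.15.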

Additional observations from a re-analysis of the deposited data

How the results depend on the processing

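The count of urea cycle genes that passed was 0 in 16 of the 17 alternatives and 1 in the other, without HFPO-TA replicate 1 (ASS1), so it ran from 0 to 1 with a library left out. With at least 5 TPM in 3 libraries only 7 of the 10 genes were tested. Over all genes, 77 changed, 37.7% of them higher. The count was 10 with no filter, 29 with at least 0.1 TPM in 3 libraries, 130 with at least 5 TPM, 11 with no trend and not robust, 30 with the replicate block, 207 with a term parting replicate 1 from 2 and 3, 29 with median-of-ratios scaling (41.4% higher), 17 with upper-quartile scaling (52.9% higher) and 222 with replicates 2 and 3 alone. It was 291 without HFPO-TA replicate 1 and 6 to 47 without any other library. The share higher was 60% with no filter, 72.7% with no trend and not robust, and 25.5% to 100% with a library left out. The neighbouring genes that passed numbered 2 in the reported fit, 0 with no filter or with no trend and not robust, 1 (GATM) with at least 0.1 TPM, with either scaling or with mitochondrial genes left out, and 4 with the term for replicate 1. They ran from 0 to 1 with a library left out. The cause was not tested.

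Direction turned only among genes that did not pass. ASL was at -0.109 without HFPO-TA replicate 2 and -0.054 without DMSO replicate 1, and up to 0.110 without another library. GLUD1 was at -0.001 and -0.025 without HFPO-TA replicates 2 and 3 and -0.040 without DMSO replicate 1, and up to 0.105 otherwise. CA5A was at -0.153 without HFPO-TA replicate 2, -0.280 without DMSO replicate 1 and -0.033 with replicates 2 and 3 alone, and up to 0.321 without another library. OAT was at -0.009 without HFPO-TA replicate 1 and -0.006 with replicates 2 and 3 alone, and up to 0.129 without another library. SAT1 was at 0.003 without HFPO-TA replicate 1 and 0.005 without DMSO replicate 2, and down to -0.069 without another library. The other 8 urea cycle genes kept their direction in every alternative in which they were tested.

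The replicate numbers as a whole were not shown to pair libraries. Deviations of same-numbered libraries correlated at 0.184, 0.123 and 0.028 over 15664 genes, and those of differently numbered libraries at -0.158 to 0.068. Deviations within a group cancel out, so these correlations depend on each other. Before deviations were taken, HFPO-TA replicate 1 correlated more with DMSO replicate 1 (0.981) than with HFPO-TA replicates 2 and 3 (0.9775 and 0.9748). For replicates 2 and 3 the closest library was in the same group. With the replicate block no urea cycle gene passed (smallest adjusted p = 0.196, for SLC25A13), and 20 of the 77 genes kept their call, GATM and ODC1 among them.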

Other observations

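Some genes outside the naming rule were chosen after their values were seen, and none of them passed the test. The C/EBP factors CEBPB and CEBPD, transcription factors induced in liver by fasting and inflammation, stood at 30.7 ± 9.78 and 80.3 ± 15.4 TPM with HFPO-TA, against 17.0 ± 3.88 and 62.6 ± 3.59 TPM with DMSO (SD, n = 3 each). The groups did not overlap for either (adjusted p = 0.24 and 0.334 with limma). NOS3, the endothelial nitric oxide synthase, which uses arginine, averaged 9.12 ± 0.769 TPM with HFPO-TA and 6.76 ± 0.668 TPM with DMSO (adjusted p = 0.254). RHBG, an ammonia transporter of the cells around the central vein, was at 20.74 to 22.57 TPM with HFPO-TA and 22.52 to 31.60 TPM with DMSO (adjusted p = 0.376).

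SLC25A12, the paralog of SLC25A13 that carries aspartate and glutamate in muscle and brain, was at 10.35 TPM in HFPO-TA replicate 2. The other 5 libraries were at 2.03 and 1.67 TPM with HFPO-TA and at 2.59, 2.70 and 1.82 TPM with DMSO. The SLC25A12 difference did not pass (log2 fold change 0.43, SE 0.54, adjusted p = 0.823 with limma). SLC25A13 was at its lowest HFPO-TA value, 15.57 TPM, in HFPO-TA replicate 2 as well, and a link between these values was not tested.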
